A study of Mus musculus with 6 samples.

Results

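CNT sub2 is the main cluster of connecting tubule cells in a single-cell study of the mouse kidney under furosemide, a loop diuretic that blocks sodium chloride uptake in the thick ascending limb. Its members were the cells that the authors' annotation placed both in the class CNT, for connecting tubule, and in the cluster named CNT sub2. They numbered 964 of 22154 cells, or 4.35%, and made up most of the 1116 cells of the class. Another 138 cells of the class were in a smaller cluster, CNT sub3, and 14 were in other clusters. No cell of the cluster CNT sub2 stood in another class.

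Furosemide-treated C57BL/6 mice, aged 16 weeks, received 70 mg/kg body weight daily for 1 week in a gel diet with 104 µmol sodium per kcal. Vehicle-treated mice of the same strain and age received that diet without the drug for the same time. Each treatment had 3 libraries, numbered 2, 4 and 6 for furosemide and 1, 3 and 5 for vehicle, and both are labelled WT, for wild type. The deposited counts covered 456 genes, called the panel here, so that a gene's level is its share of a cell's panel counts. Nothing in the labels says whether the 3 libraries of a treatment came from separate animals, so p-values measure the spread between these samples only.

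The connecting tubule joins the distal convoluted tubule to the collecting duct. Its cells take calcium up from the tubular fluid through the channel TRPV5, carry it through the cell on the binding proteins calbindin-D28K and calbindin-D9K, and pass it to the blood side through the sodium-calcium exchanger NCX1 and calcium pumps. The same segment reabsorbs sodium through the epithelial sodium channel and secretes potassium, both under the control of aldosterone. A loop diuretic lowers calcium uptake in the thick limb and raises the delivery of salt and fluid to this segment.

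Furosemide libraries 2, 4 and 6 held 186, 296 and 138 CNT sub2 cells with 433377, 644628 and 320900 counts in all. Vehicle libraries 1, 3 and 5 held 123, 120 and 101 such cells with 222507, 247523 and 165105 counts. The cluster made up 6.10%, 6.67% and 3.85% of cells in furosemide libraries, and 3.01%, 3.62% and 2.75% of cells in vehicle libraries. All furosemide shares were above all vehicle shares, but 3 leading genes of the cluster differed between treatments, so its borders can move with treatment and the shares were not tested. Within the class CNT the cluster held 81.7% to 88.9% of cells in furosemide libraries and 84.8% to 87.0% in vehicle libraries. Over all cells, 392 carried a barcode that more than 1 library held. Of these, 12 were CNT sub2 cells, and none shared its barcode with another CNT sub2 cell.

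CNT sub2 cells held more counts per cell under furosemide. Their median was 1984.5, 2020.5 and 2177 counts in furosemide libraries 2, 4 and 6, against 1481, 1811 and 1410 in vehicle libraries 1, 3 and 5. Divided by the median of all other cells of the same library, that made 1.61 ± 0.183 in furosemide libraries and 1.23 ± 0.0880 in vehicle libraries (SD, n = 3 each). Every furosemide ratio was above every vehicle ratio (two-sided exact permutation p = 0.1, and 3 libraries against 3 can give none below it). Without the counts of S100g the ratio was 1.03 ± 0.0390 under furosemide and 0.793 ± 0.102 under vehicle, again with no overlap (exact permutation p = 0.1). The same ratio was 0.957 ± 0.0535 and 0.980 ± 0.0686 in principal cells of the cortical collecting duct, and 1.20 ± 0.0577 and 1.30 ± 0.180 in late distal convoluted tubule cells (DCT2), with overlap in both. In CNT sub3 the undivided median was 1598 ± 436 counts under furosemide and 1366 ± 215 under vehicle, with overlap.

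All 5 markers given for the cluster were among its 10 leading genes by fold over all other cells. In CPM, a gene's counts divided by the summed counts of a library's cells and scaled to a common total, Trpv5, the apical calcium channel, stood at 2074 ± 182 over the 6 libraries, 27.1-fold above all other cells pooled. S100g, which encodes calbindin-D9K, was 21.3-fold above them and made up 29.5% to 43.6% of the cluster's counts in furosemide libraries and 32.4% to 40.5% in vehicle libraries. Slc8a1, which encodes NCX1, was 16.4-fold above, and Scnn1g, the gamma subunit of the epithelial sodium channel, 11.0-fold. Hsd11b2, the enzyme that shields the mineralocorticoid receptor from glucocorticoids, was 9.85-fold above other cells. Beside the markers, Kcne1, a potassium channel subunit, stood 14.3-fold higher, Slc9a4, a sodium-proton exchanger, 10.7-fold, Scnn1b, the beta subunit of the sodium channel, 8.77-fold, and Clu, which encodes the secreted chaperone clusterin, 6.74-fold. The highest fold was 79.0, for Cd8a, best known as the co-receptor of cytotoxic T cells. These levels were among those the authors clustered on, so they describe the cluster and were not tested.

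**Figure D1:**
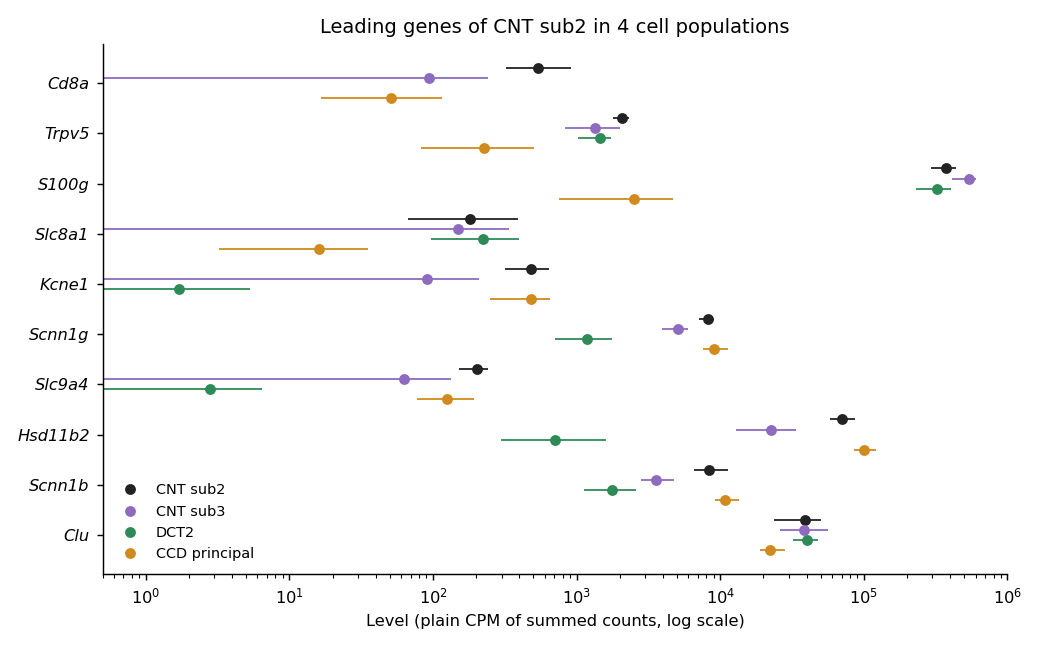
Level of the 10 leading genes of CNT sub2 in 4 cell populations, in plain CPM on a log scale; points are means over 6 libraries, lines run from the lowest to the highest library, and levels of 0 or under 0.5 lie off the axis. Trpv5 and S100g were high in CNT sub2, CNT sub3 and DCT2 and low in CCD principal cells, while Scnn1g and Hsd11b2 were high in CNT sub2 and CCD principal cells.

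Set beside its neighbours along the tubule, CNT sub2 shared high S100g with DCT2 and high Hsd11b2 with cortical principal cells. S100g stood at 375703 ± 55225 CPM in CNT sub2, 321489 ± 60122 in DCT2 and 2491 ± 1358 in cortical principal cells (SD over 6 libraries). Hsd11b2 had the other profile, with 69966 ± 10290.0 CPM in CNT sub2, 707 ± 487 in DCT2 and 100064 ± 12853 in cortical principal cells. Slc12a3, the thiazide-sensitive cotransporter that defines the distal convoluted tubule, was at 177 ± 167 CPM in CNT sub2 and 67366 ± 8272 in DCT2. Calb1, which encodes calbindin-D28K, was at 28499 ± 17609 CPM in CNT sub2, below the 76166 ± 5220 of DCT2 and above the 10269 ± 5263 of cortical principal cells. Cd8a was at 542 ± 238 CPM in CNT sub2, 50.8 ± 37.1 in cortical principal cells and 0 in every library of DCT2. The smaller cluster CNT sub3 had more S100g, 542741 ± 75785 CPM, and less Hsd11b2, 22480 ± 6915 CPM, with Cd8a at 93.1 ± 97.8 CPM.

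After each cell was thinned to 1000 counts, Trpv5 was found in 79.4%, 86.3% and 84.7% of CNT sub2 cells in furosemide libraries 2, 4 and 6, and in 78.2%, 87.5% and 79.5% in vehicle libraries 1, 3 and 5. Scnn1g was found in 99.7% ± 0.466 of cells under furosemide and 99.7% ± 0.515 under vehicle. Nearly every cell thus held the sodium channel transcript, and most held the calcium channel transcript with it. Both genes were counted together in 83.2% ± 3.48 of cells under furosemide and 81.4% ± 4.52 under vehicle. Proximal tubule cells, which lack both, gave 0.131% for Trpv5 and 0.637% for Scnn1g at the same depth. Thinning left out 51 furosemide and 53 vehicle cells that held fewer than 1000 counts. Without thinning, Trpv5 was found in 95.1% ± 1.43 of furosemide cells and 91.1% ± 2.69 of vehicle cells.

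The study's title asks how nephron segments adapt to furosemide. Of 245 genes tested in CNT sub2 with edgeR's quasi-likelihood test on counts summed per library, 19 differed at an adjusted p under 0.05, which is 7.76% of them. Of these, 8 were higher with furosemide (3.27%) and 11 lower (4.49%), and for all 19 the furosemide libraries did not overlap the vehicle libraries. Such a gap was not rare: 71 of the 245 genes, or 29.0%, had it. Genes that rose were Calb1 and Slc8a1, of calcium transport, with Tfrc, Cd8a, Slc2a4, Clu, Wnk1 and Slc12a3. Genes that fell were Adamts1, Sphk1, Slc12a1, Nedd4l, Smad7, Fxyd4, Atf3, Hbegf, Ifrd1, Adh1 and Slc4a4. The number called rested on single libraries: it was 1, Cd8a alone, without vehicle library 1, and 7, 9, 12, 8 and 20 without furosemide libraries 4, 6 and 2 and vehicle libraries 5 and 3. With the 5 most counted genes left out of the counts altogether, 5 genes rose and 11 fell of 236 tested. Clu was among the genes left out, so it could not be called there.

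**Figure D2:**
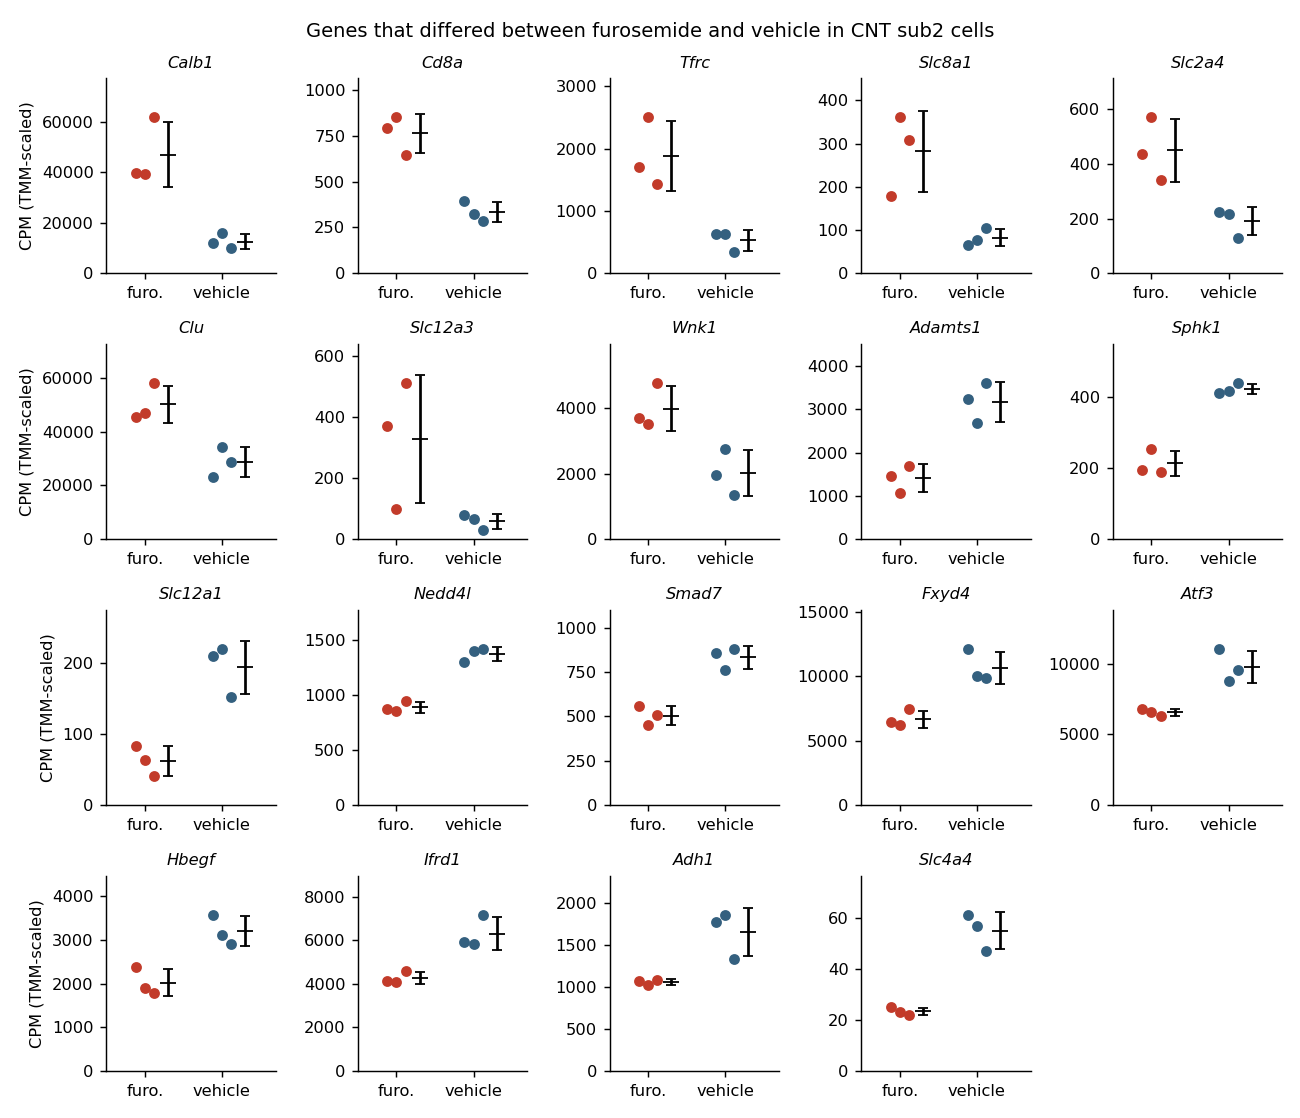
Level in CNT sub2 cells of the 19 genes that differed between treatments, in TMM-scaled CPM from 0 on linear axes; each point is 1 library, furosemide on the left and vehicle on the right, and bars give the mean ± SD (n = 3). The first 8 panels show genes that were higher with furosemide and the other 11 genes that were lower, and in every panel the points of the treatments do not overlap.

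Calb1 was the gene with the smallest p. It stood at 39893, 39469 and 61700.1 CPM after TMM scaling in furosemide libraries 2, 4 and 6, against 11896, 15979.9 and 9845 scaled CPM in vehicle libraries 1, 3 and 5. All furosemide libraries lay far above the highest vehicle library. Its log2 change was 1.90 ± 0.24 (SE), a 3.74-fold rise with a 95% interval from 2.58 to 5.41 (adjusted p = 0.00486). Without vehicle library 1 the adjusted p was 0.0773, while in the other 17 of 18 alternatives the call held and the log2 change lay between 1.66 and 2.11.

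The rise of Calb1 ran through the whole cluster rather than a few cells. In cells thinned to 1000 counts, the median cell held 33, 39 and 51 Calb1 counts in furosemide libraries 2, 4 and 6, and 9, 11.5 and 10 in vehicle libraries 1, 3 and 5. The 25th percentile was 22, 24 and 35 under furosemide, and the 75th percentile was 15, 21 and 15 under vehicle. A cell at the lower quartile of any furosemide library thus held more Calb1 than a cell at the upper quartile of any vehicle library. Calb1 was detected in 99.8% ± 0.330 of furosemide cells and 97.6% ± 2.24 of vehicle cells after thinning. Proximal tubule cells, which lack the gene, gave 6.35% ± 0.511 under furosemide and 2.83% ± 0.720 under vehicle at that depth.

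**Figure D3:**
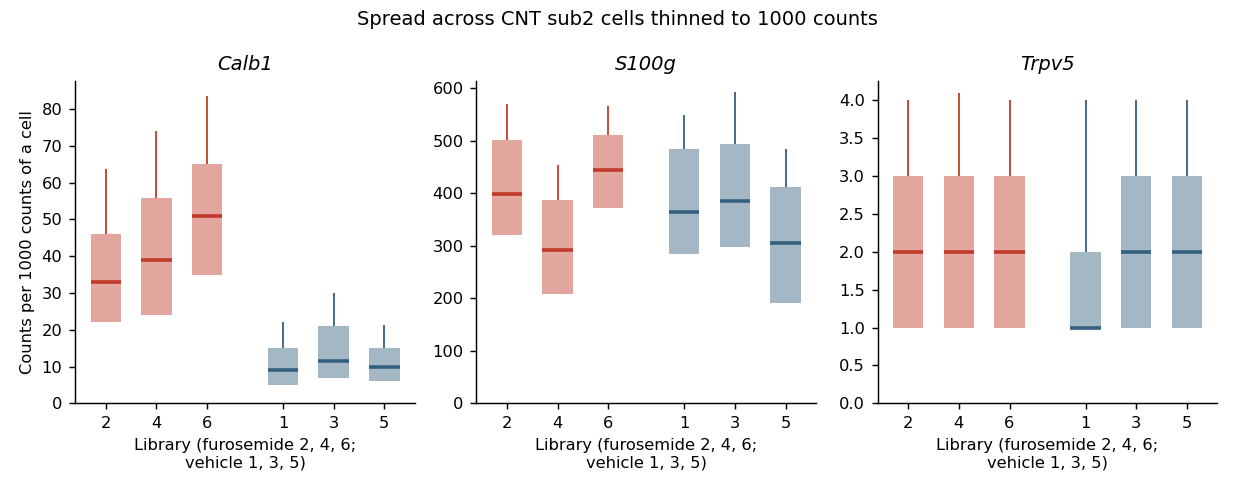
Spread of Calb1, S100g and Trpv5 across CNT sub2 cells thinned to 1000 counts, for furosemide libraries 2, 4 and 6 and vehicle libraries 1, 3 and 5; boxes run from the 25th to the 75th percentile, thick lines are medians and thin lines reach the 90th percentile. Calb1 medians were 33 to 51 under furosemide and 9 to 11.5 under vehicle, while those of S100g and Trpv5 overlapped.

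Slc8a1, the exchanger that moves calcium out of the cell on the blood side, stood at 178, 361 and 308 scaled CPM in furosemide libraries, against 65.7, 77.3 and 105 in vehicle libraries. Furosemide libraries all lay above vehicle libraries, with a log2 change of 1.79 ± 0.33 (adjusted p = 0.0207, and 0.0773 without vehicle library 1). The call was also lost without furosemide library 4, the highest one (adjusted p = 0.0592), and over all 18 alternatives the log2 change lay between 1.56 and 2.09. These sums rested on 71, 250 and 84 counts under furosemide and 15, 19 and 20 counts under vehicle. Thinned cells held an Slc8a1 count in 17.1%, 28.5% and 17.7% of cases under furosemide, and in 6.93%, 6.25% and 5.13% under vehicle (exact permutation p = 0.1, the smallest possible). Proximal cells gave 0.0163%. Before thinning the shares were 40.6% ± 12.2 under furosemide and 12.4% ± 2.18 under vehicle. Slc8a1 is a leading gene of the cluster. Over all cells of the class CNT it also passed (adjusted p = 0.0157). CNT sub2 made up 964 of those 1116 cells, so that fit is no separate check.

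The entry channel and the second calbindin did not pass. Trpv5 stood at 2169.5, 1999 and 2720.1 scaled CPM under furosemide, against 1749, 2210 and 1728 under vehicle, which overlap. Its log2 change was 0.27 with a 95% interval from -0.11 to 0.65 (adjusted p = 0.423), an interval that leaves out the changes fitted for Calb1 and Slc8a1. S100g stood at 449494, 274003 and 513497 scaled CPM under furosemide, against 371975, 407646 and 279894 under vehicle, and its libraries spread widely within each treatment (0.22, interval -0.36 to 0.81, adjusted p = 0.698). S100g took so large a part of all counts that its own share bears on the share left for every other gene, which TMM scaling is meant to correct.

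Of the 17 listed genes of calcium and magnesium transport, 7 were tested, and 2 rose and none fell. Over all 245 genes tested, 8 rose and 11 fell. The list's median log2 change was 0.64, beside -0.01 over all genes tested. Kl, which encodes klotho, a co-receptor of the hormone FGF23 made in this segment, stood at 11341, 11559 and 12720 scaled CPM under furosemide, against 6303, 9606 and 6902 under vehicle. Its libraries did not overlap, but the test missed the threshold (0.64 ± 0.17, adjusted p = 0.0525). Kl passed in 6 of 18 alternatives, among them DESeq2 (adjusted p = 0.00502) and the fit without vehicle library 3 (0.0174), and missed in the other 12 (up to 0.210). Trpm6, a magnesium channel, was at 0.73 ± 0.29 (adjusted p = 0.179), and Casr, the calcium-sensing receptor, at -0.14 ± 0.37 (adjusted p = 0.881). Both were low, with 142 ± 27.8 and 57.4 ± 5.19 scaled CPM under furosemide and 84.8 ± 18.7 and 62.8 ± 28.7 under vehicle.

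The stretches before the annotated starts of Slc8a1, which rose, and of Trpv5 and S100g, which did not pass, are shown so that the genes can be set side by side. Each holds the 250 bases before the start in RefSeq (build GRCm38.p6, all on the minus strand, at chr17:81738388-81738637, chr6:41680724-41680973 and chrX:162964600-162964849). Of the 7 tested calcium and magnesium genes, 6 had such a stretch on record, and Calb1, which also rose, had none. Those of Kl, Trpm6 and Casr are not shown. Capitals mark 2 motifs searched on both strands, the TATA-box letters TATAAA and the nuclear receptor half-site AGGTCA, which reads TGACCT on the other strand.
Slc8a1: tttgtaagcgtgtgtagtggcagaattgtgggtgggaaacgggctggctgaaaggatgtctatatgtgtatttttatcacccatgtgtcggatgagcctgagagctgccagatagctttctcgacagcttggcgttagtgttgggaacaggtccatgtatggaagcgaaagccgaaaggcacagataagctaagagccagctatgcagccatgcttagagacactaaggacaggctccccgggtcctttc
Trpv5: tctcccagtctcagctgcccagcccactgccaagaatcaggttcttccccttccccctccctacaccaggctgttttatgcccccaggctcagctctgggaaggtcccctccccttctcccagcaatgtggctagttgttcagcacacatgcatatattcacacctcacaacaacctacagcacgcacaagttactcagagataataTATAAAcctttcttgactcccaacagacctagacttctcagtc
S100g: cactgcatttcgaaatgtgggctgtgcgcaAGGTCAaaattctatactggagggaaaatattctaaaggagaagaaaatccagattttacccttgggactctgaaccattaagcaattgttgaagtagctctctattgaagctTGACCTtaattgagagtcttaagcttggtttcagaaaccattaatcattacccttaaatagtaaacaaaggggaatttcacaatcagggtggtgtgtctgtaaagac
TATAAA began 43 bases before the start of Trpv5, and AGGTCA began 220 bases (forward) and 107 bases (reverse) before that of S100g. The Slc8a1 stretch held neither set of letters, and the motifs did not overlap each other. Among 32536 such stretches of RefSeq genes, 12.3% held TATAAA and 14.0% held AGGTCA on either strand, so that finding them is a description of these letters only.

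Of 20 listed genes of sodium and potassium transport under aldosterone, 11 were tested, 1 rose and 1 fell, beside 19 of 245 over all genes tested. Their median log2 change was 0.00. Nedd4l, a ubiquitin ligase that takes the epithelial sodium channel off the cell surface, stood at 867, 850.0 and 939.7 scaled CPM in furosemide libraries, against 1293, 1396 and 1414 in vehicle libraries. It fell by 0.63 on the log2 scale (SE 0.13, adjusted p = 0.0208), with no overlap between treatments. That call held in 13 of 18 alternatives and was lost without any single library other than vehicle library 3 (adjusted p up to 0.122). Thinned cells held a Nedd4l count in 52.8% ± 3.22 of cases under furosemide and 75.5% ± 4.83 under vehicle (exact permutation p = 0.1).

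Wnk1, a kinase that controls sodium and potassium transport in the distal nephron, stood at 3698, 3507 and 4757 scaled CPM under furosemide, against 1955, 2752 and 1361 under vehicle. Its log2 change was 0.97 ± 0.24 (adjusted p = 0.0398). The call held in 10 of 18 alternatives, and it was lost over all cells of the class CNT (adjusted p = 0.142) and without each library but vehicle library 3 (up to 0.209). Wnk4, a related kinase, was at 0.69 ± 0.24 (adjusted p = 0.128), and it passed with DESeq2 (0.0379) and without furosemide library 2 (0.0476).

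No subunit of the channel passed. Scnn1g stood at 8530.3, 8014 and 8399 scaled CPM in furosemide libraries and 8135, 8161 and 7818 in vehicle libraries, a log2 change of 0.05 with a 95% interval from -0.21 to 0.30 (adjusted p = 0.866). Scnn1b was at 0.19 (interval -0.18 to 0.56) and Scnn1a, the alpha subunit, at -0.02 (-0.69 to 0.65). Hsd11b2 was at 0.08 (-0.25 to 0.40), Nr3c2, the mineralocorticoid receptor, at -0.18 (-0.56 to 0.19), Sgk1, an aldosterone-induced kinase, at -0.19 (-0.70 to 0.32), and Kcnj1, the secretory potassium channel ROMK, at 0.00 (-0.30 to 0.30). None of these 7 genes passed, and the intervals of Scnn1g, Kcnj1 and Hsd11b2 leave out a change of 0.5 or more on the log2 scale. Directions of Scnn1g, Hsd11b2 and Kcnj1 turned negative with library size alone as the scaling, which moved the median of all genes by -0.15. Stk39, the kinase SPAK that acts with the WNK kinases, was at -0.09 ± 0.14 (adjusted p = 0.778).

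**Figure D4:**
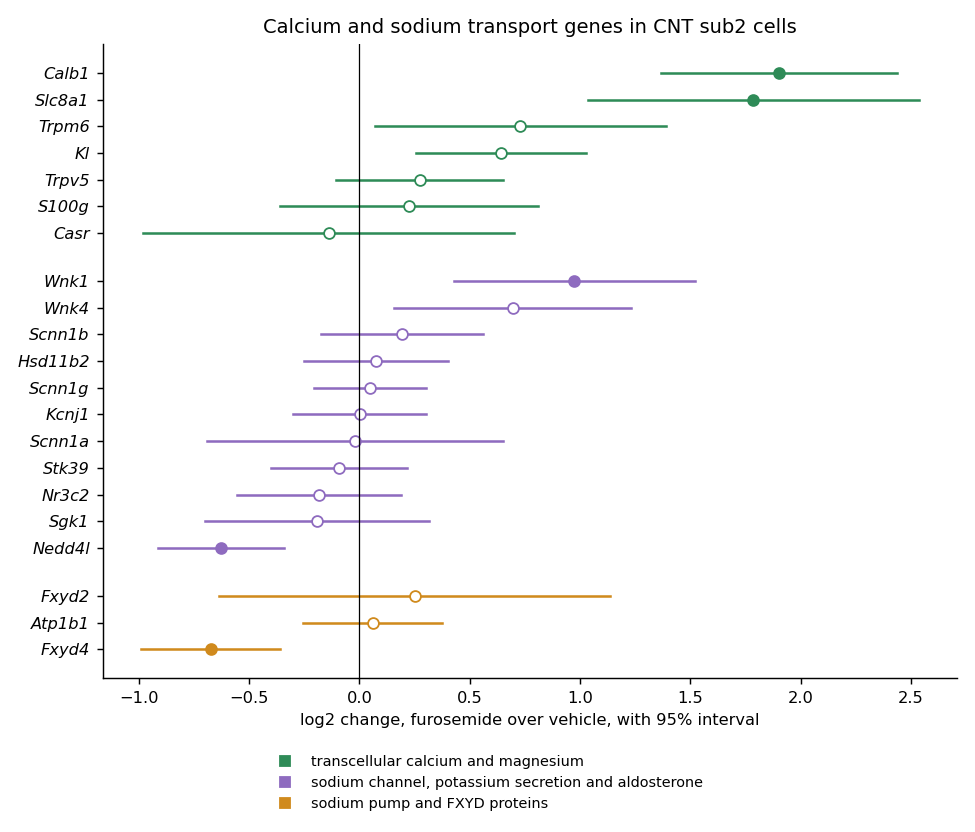
Log2 change with furosemide over vehicle of calcium, sodium channel and sodium pump genes tested in CNT sub2 cells, with 95% intervals; filled points passed at an adjusted p under 0.05 and open points did not. Calb1 and Slc8a1 stood at 1.90 and 1.79, Nedd4l at -0.63, and the 3 sodium channel subunits between -0.02 and 0.19.

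Among 3 tested genes of the sodium pump list, Fxyd4 fell and none rose. Fxyd4, a small membrane protein that raises the pump's affinity for sodium, stood at 6436, 6188 and 7434 scaled CPM in furosemide libraries, against 12124, 10001 and 9845 in vehicle libraries. Its log2 change was -0.67 ± 0.14 (adjusted p = 0.0221), and the call held in 14 of 18 alternatives but not without furosemide libraries 2 or 4 or vehicle libraries 1 or 5 (up to 0.0950). Fxyd4 is also a principal cell marker. The panel's other listed marker of that type, Aqp2, the vasopressin-regulated water channel, was at 52.6 to 107 scaled CPM under furosemide and 52.6 to 69.2 under vehicle (0.32 ± 0.37, adjusted p = 0.698). Summed over both markers the level was 5976 to 6767 plain CPM under furosemide and 9995 to 12485 under vehicle. Fxyd4 itself gave nearly all of that sum, and the part of such cells in the result was not tested. Atp1b1, the beta subunit of the pump, was at 0.06 ± 0.14 and Fxyd2, its gamma subunit, at 0.25 ± 0.39, and neither passed.

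Of 14 listed genes of thiazide-sensitive transport, 11 were tested, with Slc12a3 and Wnk1 higher and a median log2 change of 0.07. Over all genes tested, 8 of 245 were higher. Slc12a3 had 148, 69 and 139 counts in furosemide libraries and 18, 16 and 6 in vehicle libraries, a log2 change of 2.42 ± 0.60 (adjusted p = 0.0398). A single cell held 57 of the 148 counts in furosemide library 2, and another held 62 of the 139 in library 6. Without the 3 cells in which the gene made up 1% or more of counts, all of them under furosemide, the change was 1.45 and no longer passed (adjusted p = 0.0738), and the call held in 7 of 18 alternatives (adjusted p up to 0.259, with limma-voom). Furosemide library 4 was the only library whose removal left it. Thinned cells held an Slc12a3 count in 9.33% ± 1.39 of cases under furosemide and 5.38% ± 1.54 under vehicle. Proximal cells, which do not make this cotransporter, gave 8.24% ± 1.95 and 7.68% ± 0.778 at that depth, so these shares are at background. Before thinning the shares were 18.1% ± 1.51 and 8.94% ± 5.18 in CNT sub2. Pvalb, a distal convoluted tubule marker, was at 0 in every library. The 4 listed markers of that type summed to 507 to 841 plain CPM under furosemide and 321 to 481 under vehicle. That sum includes Slc12a3 itself. Of the others, Ppp1r1a was at 253 to 378 plain CPM under furosemide and 194 to 311 under vehicle, with overlap. Trpm6 was at 108 to 147 and 71.9 to 105, without overlap, and the part of such cells in the result was not tested.

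Slc12a1, the thick limb cotransporter that furosemide inhibits, had 33, 44 and 11 counts under furosemide and 48, 54 and 29 under vehicle, with a log2 change of -1.62 ± 0.32 (adjusted p = 0.0208). That call was lost with equal cell numbers and without furosemide library 4 or vehicle library 1 (up to 0.199). Thinned cells held a count in 5.45% ± 2.10 of cases under furosemide and 15.3% ± 1.08 under vehicle. In proximal cells, which do not make it either, the shares were 5.38% ± 0.414 and 9.95% ± 2.92. The furosemide share in CNT sub2 was thus at background, and the background was itself lower under furosemide. The 6 thick limb markers summed to 576 to 794 plain CPM in CNT sub2 under furosemide and 999 to 1192 under vehicle. That sum includes Slc12a1 itself, and Umod gave its largest part, at 332 to 439 and 478 to 578. Umod, Cldn16 and Cldn10 did not overlap between treatments. Egf, at 112 to 261 and 176 to 328, and Ptger3 did overlap. The part of thick limb cells in the result was not tested. Slc4a4, a bicarbonate cotransporter of the proximal tubule, had 23.4 ± 1.54 scaled CPM under furosemide and 55.2 ± 7.29 under vehicle (-1.23 ± 0.32, adjusted p = 0.0470), and its call held in 5 of 16 alternatives with an adjusted p. It was lost whichever library was left out (up to 0.209), with limma-voom, without a filter, with equal cell numbers (0.273), without the cells of highest totals and over the whole class, and DESeq2 gave it no adjusted p. Adh1, an alcohol dehydrogenase, was at 1061 ± 32.4 and 1654 ± 284 scaled CPM (-0.64 ± 0.16, adjusted p = 0.0382), a call that held in 9 of 18 alternatives (adjusted p up to 0.162). Vehicle library 5 was the only library whose removal left it. Thinned proximal cells held a count of Slc4a4 in 77.4% ± 5.61 of cases under furosemide and 81.6% ± 4.06 under vehicle, and of Adh1 in 94.9% ± 0.652 and 92.9% ± 1.63.

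Tfrc, the transferrin receptor through which cells take up iron, stood at 1714, 2501 and 1428 scaled CPM in furosemide libraries, against 631, 631 and 335 in vehicle libraries. Furosemide libraries all lay above vehicle libraries, and the log2 change was 1.82 ± 0.28 (adjusted p = 0.00871, and 0.0773 without vehicle library 1, the only alternative of 18 that lost it). It was the only one of 5 tested genes of the iron, heme and antioxidant list to pass. Gpx1, a glutathione peroxidase, was at 0.44 ± 0.14 (adjusted p = 0.101) and Hmox1, heme oxygenase, at -0.33 ± 0.34 (adjusted p = 0.652).

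Cd8a stood at 792, 850.0 and 646 scaled CPM in furosemide libraries, against 394, 326 and 288 in vehicle libraries, and was the only gene called in all 18 alternatives (1.18 ± 0.18, adjusted p = 0.00871, and at most 0.0414). Its counts came from part of the cells: 63 of 186, 114 of 296 and 41 of 138 cells under furosemide, and 32 of 123, 34 of 120 and 18 of 101 under vehicle. After thinning the shares of cells overlapped, at 22.9%, 27.4% and 20.2% under furosemide and 21.8%, 19.6% and 16.7% under vehicle (exact permutation p = 0.2). Proximal cells gave 0.0327%. Of the listed immune markers the panel held Cd4, Cd74, Lyz2 and C1qa, and not Ptprc, Cd3e, Cd8b1 or Cd79a. Those 4 together reached 0 to 20.8 plain CPM under furosemide and 6.06 to 84.8 under vehicle, highest in vehicle library 3. Ccl5, an immune gene outside that list, had 84, 40 and 122 counts in furosemide libraries 2, 4 and 6. It had 17, 12 and 7 in vehicle libraries 1, 3 and 5. Its counts came from 2 to 4 cells a library, and their part in the Cd8a result was not tested. Over all cells of the class CNT, which are mostly the same cells, Cd8a also passed (adjusted p = 0.0122).

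Slc2a4, the insulin-responsive glucose transporter GLUT4, stood at 436, 570.0 and 341 scaled CPM under furosemide, against 224, 216 and 131 under vehicle (1.24 ± 0.27, adjusted p = 0.0255). It was the 1 gene called among 4 tested of the energy, creatine and glucose list. The call held in 13 of 18 alternatives, and not without furosemide library 4 or vehicle libraries 1 or 5, nor over the whole class or in thinned cells (up to 0.0783). Ckb, the brain-type creatine kinase, at 1.55 ± 0.41, just missed (adjusted p = 0.0530), as did Slc2a1, the glucose transporter GLUT1, at -0.47 ± 0.13 (adjusted p = 0.0586). Clu stood at 45332, 47060.3 and 57985 scaled CPM under furosemide and 23011, 34357 and 28586 under vehicle, a log2 change of 0.81 ± 0.18 (adjusted p = 0.0278). It was the 1 gene called of 5 tested in the tubular injury list, whose other members include Spp1, which encodes osteopontin, at 0.38 ± 0.14 (adjusted p = 0.167). The call on Clu was lost without any single library other than vehicle library 3 (up to 0.112).

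Genes of the extracellular matrix, growth factor and early response lists were among those that fell. Adamts1, a secreted metalloprotease, stood at 1463, 1069 and 1696 scaled CPM in furosemide libraries, against 3230.4, 2670.1 and 3597 in vehicle libraries. It had the smallest p of the genes that fell (-1.17 ± 0.20, adjusted p = 0.0119), lost in 1 of 18 alternatives, without vehicle library 1 (0.0773). All 6 tested genes of the matrix and metalloproteinase list had a negative log2 change, with a median of -0.25. The 5 beside Adamts1 did not pass. Over all 245 genes tested, 121 had a positive log2 change and the median was -0.01. Thbs1, which encodes thrombospondin, was at -0.53 ± 0.21 (adjusted p = 0.175).

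Among growth factor genes, 8 were tested and 2 fell, beside 11 of 245 over all genes tested. Hbegf, a ligand of the epidermal growth factor receptor, averaged 2018 ± 311 scaled CPM under furosemide and 3201 ± 338 under vehicle (-0.66 ± 0.15, adjusted p = 0.0334). Smad7, an inhibitor of TGF-beta signalling, averaged 505 ± 54.2 and 833 ± 63.4 scaled CPM (-0.72 ± 0.15, adjusted p = 0.0208). Egfr, the receptor of Hbegf, was at -0.97 ± 0.31 on 33.2 ± 4.36 and 64.8 ± 8.92 scaled CPM (adjusted p = 0.102). The list's median was -0.34. Hbegf held its call in 12 of 18 alternatives (up to 0.133) and Smad7 in 13 (up to 0.0773), and both lost it without furosemide libraries 4 or 6 or vehicle libraries 1 or 5.

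Of 7 tested immediate early and heat shock genes, Atf3, a stress-induced transcription factor, fell. In all, 6 of them had a negative log2 change, with a median of -0.29, beside -0.01 over all genes tested. Atf3 stood at 6769, 6558 and 6329 scaled CPM under furosemide, against 11037, 8796 and 9546 under vehicle (-0.58 ± 0.13, adjusted p = 0.0278). Its call was lost without any single library other than vehicle library 3 (up to 0.101) and over the whole class. Fos and Jun, which form the factor AP-1, were at -0.29 ± 0.18 and -0.29 ± 0.17, Egr1 at -0.40 ± 0.16 and the heat shock protein gene Dnajb1 at -0.58 ± 0.20, none of which passed (adjusted p between 0.130 and 0.423).

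Sphk1, which makes sphingosine-1-phosphate, averaged 214 ± 36.0 scaled CPM under furosemide and 424 ± 14.5 under vehicle (-0.97 ± 0.19, adjusted p = 0.0208), a call lost without furosemide libraries 2 or 6 or vehicle libraries 1 or 5 (up to 0.0806). It was the 1 gene to fall of 2 tested in the prostaglandin, adenosine and sphingosine list. Ifrd1, a transcriptional co-regulator, averaged 4271 ± 276 and 6316 ± 744 scaled CPM (-0.56 ± 0.13, adjusted p = 0.0334), and held its call in 10 of 18 alternatives, with vehicle library 3 the only single library whose removal left it (up to 0.165).

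In 4 other lists no gene rose. Water channels and vasopressin response had 2 tested genes and none called. Acid-base transport had 8 tested, with Slc4a4 lower, and Rhcg, an ammonia channel that also marks type A intercalated cells, at -0.46 ± 0.13 did not pass (adjusted p = 0.0663). The 3 markers of that cell type in the panel, of which Rhcg gave nearly all counts, summed to 9408 to 14517 plain CPM under furosemide and 15740.0 to 21187 under vehicle, without overlap. The other 2, Slc4a1 and Aqp6, had 5 to 15 counts a library, and the part of such cells in the result was not tested. The insulin-like growth factor list had 2 tested genes, Igf1r, the receptor, at -0.70 ± 0.29 (adjusted p = 0.200) and Insr, the insulin receptor, at -0.51 ± 0.31. Endoplasmic reticulum stress had 5 tested and none called, with Xbp1, a transcription factor of that response, at 0.37 ± 0.14 (adjusted p = 0.164).

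Cell division was rare in CNT sub2. Birc5 and Mki67, both made in dividing cells, were counted together in 2 of 186, 3 of 296 and 1 of 138 cells in furosemide libraries, and in none of the 123, 120 and 101 cells of vehicle libraries. That is 0.938% ± 0.187 per library under furosemide and 0 under vehicle (exact permutation p = 0.1). With so few cells, a count of 0 allows a share of up to 2.44%, 2.50% and 2.97% in vehicle libraries 1, 3 and 5, above every furosemide share, so a difference was not detectable at this depth within single libraries. Proximal tubule cells gave 0.122% ± 0.157 under furosemide and 0.124% ± 0.0201 under vehicle. These cells were not thinned, and their median was 1213 counts, against 1864 in CNT sub2, so the shares are at unlike depths. Among neighbouring populations, CNT sub3 had both genes in 4 of 85 furosemide cells and 0 of 53 vehicle cells. DCT2 had them in 3 of 325 furosemide cells and 0 of 160 vehicle cells, and cortical principal cells in 7 of 684 furosemide cells and 3 of 541 vehicle cells. Libraries overlapped between treatments in each of these 3 populations (exact permutation p between 0.4 and 1). Thinned cells gave 5 of 569 under furosemide and 0 of 291 under vehicle. Cells with either gene numbered 16 of 620 under furosemide and 5 of 344 under vehicle, with overlap between libraries (exact permutation p = 0.4). The 6 cells with both genes had a median of 2988 counts, against 1859 in the other cells of the cluster, and held Trpv5 and Scnn1g at 2455 and 5468 plain CPM. Among 5 tested genes of the cell division list none was called, and Ccnd1, which encodes cyclin D1, had the smallest p (-0.29 ± 0.13, adjusted p = 0.248).

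The changes were compared with those of the neighbouring populations by testing the difference itself, with the library as a block. Against DCT2, the segment before it, 6 of 248 genes differed in their response (2.42%). Calb1 rose in CNT sub2 and stood at a log2 change of 0.03 ± 0.17 in DCT2, a difference of 1.89 ± 0.19 (adjusted p = 0.00361). Kl differed by 1.06 ± 0.15 (adjusted p = 0.0162), at 0.64 in CNT sub2 and -0.38 in DCT2. Wnk1 differed by 1.31 ± 0.22 (adjusted p = 0.0417) and Slc2a4 by 1.18 ± 0.21 (adjusted p = 0.0429), both higher in CNT sub2. Atf3 differed by -0.96 ± 0.18 (adjusted p = 0.0458) and S100g by 0.57 ± 0.11 (adjusted p = 0.0458). The S100g call was lost under each of 3 other settings of scaling, filter and tool. Calb1 kept its call in all 9 alternatives, settings and libraries left out alike, and Kl in all but the fit without vehicle library 5, where Calb1 alone was called. When single libraries were left out, the differences of Atf3 and S100g were lost in all 6 fits, that of Slc2a4 in all but the one without furosemide library 6, and that of Wnk1 in all but those without furosemide library 6 or vehicle library 3. Slc8a1 differed by 1.68 ± 0.38 and missed (adjusted p = 0.0861).

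Tfrc also rose in DCT2. It was at 1.75 ± 0.24 there (adjusted p = 0.00207), a difference of 0.07 ± 0.36 from CNT sub2 (adjusted p = 0.975). Nedd4l differed by -0.23 ± 0.22 (adjusted p = 0.701).

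Against principal cells of the cortical collecting duct, the segment after it, 2 of 292 genes differed in their response (0.685%). Calb1 was at 1.26 ± 0.23 there, a difference of 0.69 ± 0.09 (adjusted p = 0.0309). Spp1 was at -0.51 ± 0.14 in principal cells, a difference of 0.94 ± 0.15 (adjusted p = 0.0498). Neither call held without furosemide libraries 4 or 6 or without vehicle libraries 1 or 5, where edgeR called no gene and 27 to 43 had an unadjusted p under 0.05. With limma-voom and the library as a random block, the difference of Calb1 had an SE of 0.27 and did not pass (adjusted p = 0.257), while that of Spp1 did (0.0222). Nedd4l and Fxyd4 were lower by 0.29 ± 0.14 and 0.29 ± 0.10 on the log2 scale in principal cells, and their differences from CNT sub2 did not pass (adjusted p = 0.352 and 0.237).

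Against the smaller cluster CNT sub3, none of 224 genes differed in response with edgeR, with 8 at an unadjusted p under 0.05, and none with limma-voom, with 17. Calb1 was at 1.75 ± 0.42 in CNT sub3, a difference of 0.05 ± 0.36. Only 15 to 33 cells per library entered those sums, so the intervals were wide, and 5 genes were called without furosemide library 6.

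**Figure D5:**
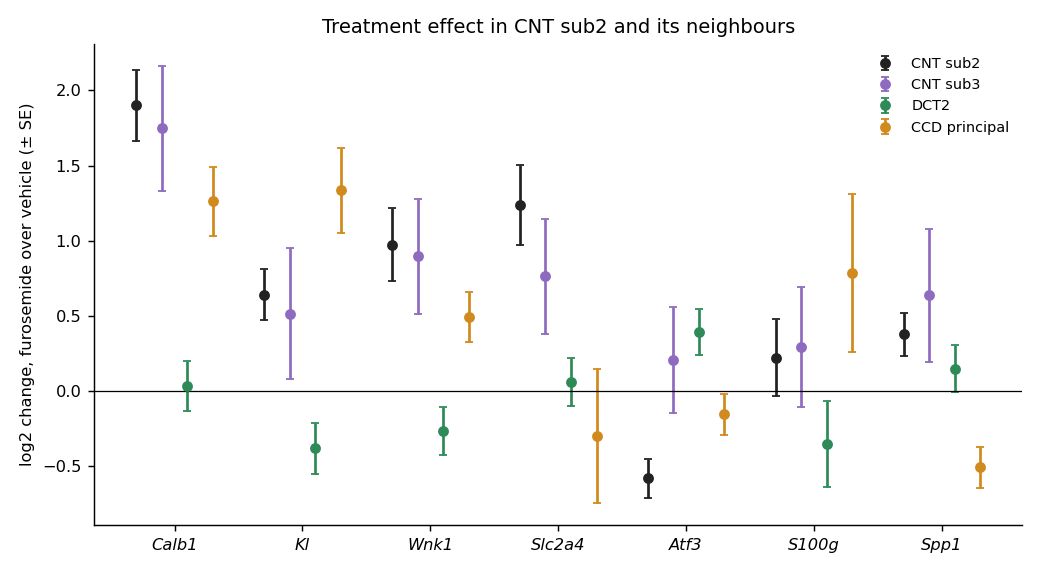
Log2 change with furosemide over vehicle, ± SE, in CNT sub2, CNT sub3, DCT2 and cortical collecting duct (CCD) principal cells, for the 7 genes whose response in CNT sub2 differed from that in DCT2 or CCD principal cells. Calb1 stood at 1.90 in CNT sub2, 1.75 in CNT sub3, 0.03 in DCT2 and 1.26 in CCD principal cells.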

How the data were processed

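Single kidney cells were captured on BD Rhapsody beads and sequenced, per the labels' protocols, and Bowtie2 2.2.9 is named in the submitters' processing notes. The sources used here do not state the build, the way reads were counted or whether molecular barcodes were collapsed. What the authors deposited are whole-number counts for each gene in each cell. The deposited table's name says that doublets and mixed cells were taken out and cell numbers made equal, and each treatment has 11077 cells. That name also holds "PassGenes", so genes outside the panel may have been taken out rather than not measured. Classes, clusters, library numbers and treatments come from the deposited annotation, where "ctrl" was read as vehicle. Library numbers could not be joined to the replicate numbers of the labels.

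Counts of CNT sub2 cells were summed per library, with 165105 to 644628 counts a sum, and tested with the quasi-likelihood test of edgeR 4.0.16 (R 4.3.3) after TMM scaling and filterByExpr, with a robust fit, with Benjamini-Hochberg adjustment over all genes tested and a threshold of 0.05. The standard error is the log2 change over the square root of F, which is approximate. Differences of response used library, population and population by treatment as terms. DESeq2 1.42.0 and limma 3.58.1 (voom), other scalings, filters, cell sets and leaving out each library were alternatives. Cells were thinned to 1000 counts with a fixed seed for shares. Floors take 3 counts and, like all intervals of counts, cover counting error only. On counts simulated from these means, the edgeR test called 26 of 26 genes changed by a log2 value of 2, 22 of 23 changed by 1 and 0 of 189 unchanged. The simulation gave all genes the same dispersion, below the common value of 0.0408 fitted to these data. Those shares thus do not give the power of the test in these data.

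Members, gene lists, markers, tests and the naming rule were chosen with earlier results of these data known. Named were all called genes, the markers, the tested members of the first 3 lists, the 10 leading genes at 100 CPM or more, genes called in a difference of response, Birc5 and Mki67, and per other list its called members or the one with the smallest p. Genes named beside these were chosen after their values were seen. A member of the sodium pump list is not reported here and is left out of that list's counts.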

Additional observations from a re-analysis of the deposited data

Results flagged for a closer look

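The treatment effect differed between CNT sub2 and another population, by a test of the difference itself with edgeR, for 7 genes. Against DCT2 the difference in log2 change was 1.89 for Calb1, 1.06 for Kl, 1.31 for Wnk1, 1.18 for Slc2a4, -0.96 for Atf3 and 0.57 for S100g. Of these, Kl and S100g passed in neither population on their own. Against cortical collecting duct principal cells it was 0.69 for Calb1 and 0.94 for Spp1, and neither Spp1 effect passed on its own.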

How the results depend on the processing

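With furosemide against vehicle, 19 genes were called in CNT sub2, and 29 with DESeq2 (15 higher, 14 lower). The count was 20 with DESeq2's size factors in edgeR, 25 with library size alone, 15 without a filter, 18 with limma-voom, 17 with equal cell numbers and 13 with thinned cells. It was 12, 7 and 9 without furosemide libraries 2, 4 and 6, and 1, 20 and 8 without vehicle libraries 1, 3 and 5. For the difference of response the range was 0 to 5 against CNT sub3, 1 to 8 against DCT2, where no filter gave 7 and limma-voom 8, and 0 to 3 against cortical principal cells, where limma-voom gave 1 and lost Calb1. No vehicle cell of CNT sub2 held both Birc5 and Mki67, so no alternative that asks for both genes could turn that direction.

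No called gene changed direction. Values that did were all of genes that did not pass, and the cause was not tested. With library size alone they were Hsd11b2 -0.068, Scnn1g -0.11, Atp1b1 -0.087, Slc9a4 -0.083 and Kcnj1 -0.14. Without furosemide library 4 they were Aqp2 -0.10, Hsd11b2 -0.0060, Atp1b1 -0.0053 and Kcnj1 -0.091. Without vehicle library 1 they were Atp1b1 -0.023, Casr 0.16, Slc9a4 -0.11 and Scnn1a 0.084. Scnn1a was 0.18 and 0.21 without furosemide libraries 2 and 6, 0.0080 with DESeq2's size factors and 0.0045 with DESeq2. Sgk1 was 0.028 without furosemide library 6, Kcnj1 -0.053 without vehicle library 5, -0.0011 with limma-voom and -0.00032 without cells rich in Slc12a3, and Casr 0.016 without the cells of highest totals. With equal cell numbers Stk39 was 0.092 and Fxyd2 -0.20, and with thinned cells Stk39 was 0.11.

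No paired analysis was possible because the cell table carries library numbers that match no replicate number of the labels. Taking all cells of the cluster was the same as the main set. Of 456 genes, 245 had enough counts to be tested, and vehicle libraries were the shallower ones, with 3 counts worth 12.1 to 18.2 CPM there, against 4.65 to 9.35 CPM under furosemide.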
